A study of Mus musculus with 504 samples.

Results

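The genes described here are 7 that mark resident tissue macrophages: C1qa, C1qb and C1qc, which encode the 3 chains of the complement protein C1q, and Apoe, Mrc1, Ms4a7 and Ctss. They were chosen by name, with earlier results of these data known, and read from the rows of the deposited count table, 7 of 55450 genes. Shares and medians of all genes given beside those of the 7 are therefore a description and not a test of the set. C1q is the recognition unit of the classical complement pathway, assembled from its 3 chains, and in mice it is made mainly by macrophages and dendritic cells rather than by the liver, which supplies most other complement proteins. Tissue macrophages also secrete apolipoprotein E, a carrier of lipids, and carry the mannose receptor (Mrc1, CD206), which takes up glycoproteins. Ms4a7 encodes a membrane-spanning protein found on macrophages, and Ctss encodes cathepsin S, a lysosomal protease that trims the invariant chain during antigen presentation. In mammary tumours macrophages are among the most frequent non-tumour cells, and their transcripts are used as a mark of such cells in sorted material.

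Tumour cells were sorted from mice of 2 lines, with 5 animals of each, to follow partial and full epithelial-mesenchymal transition (EMT). One line carried Tnc-CreERT2 and the second Cdh2-CreERT2, and both carried the oncogene transgene MMTV-PyMT, the recombinase transgene MMTV-Flpo and the reporter allele RC::FrePe. All animals were given tamoxifen, 2 mg per dose and 2 doses per week, from 9 weeks of age until they were killed at about 13 to 14 weeks, so no group is untreated. The Flp recombinase is driven by the MMTV promoter and is meant to turn mammary tumour cells mCherry-positive, and a tamoxifen-activated Cre driven by Tnc or by Cdh2 then turns them GFP-positive for good. In the Tnc line the mCherry cells without EpCAM were sorted as P05 and those with high EpCAM as P17 and P18, the double-positive population was P22 (EpCAM high), and the GFP populations were P16 (EpCAM medium), P10 (EpCAM low) and P15 (EpCAM negative). P17 and P18 carry the same gate in the sample labels, mCherry high and EpCAM high, whereas the series text calls P17 mCherry-positive and only P18 mCherry high. P09 is GFP high and EpCAM medium by its sample labels, whereas the series text gives that gate under the number of P18 and lists none for P09. The Cdh2 line contributed P18, P15 and P05, the last from 1 animal, and no library of that line is labelled P17. No gate against a leukocyte marker such as CD45 is named in the labels, and the reporter transcripts were not measured here. The label of the source speaks of cell lines, while the growth protocol says that cells were sorted directly from tumours.

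A library was made from a pool of 5 cells (Smart-seq2, full-length cDNA without molecular identifiers), and 335 of 487 such libraries passed the authors' quality control, with totals of 313655 to 27849014 counts. Counts were summed per animal and population to 43 sums, and the animal is the replicate, since pools of an animal are not independent. Levels are in CPM (a gene's counts scaled to a fixed library total), and a library is said to hold a gene at 10 CPM or more. EpCAM-positive populations had the epithelial transcripts their gates call for, with a summed level of 8 epithelial markers of 9465 to 22486 CPM in the P18 sums of the Tnc line. The animal TENA2517 stood apart in P10, where the same sum was 66.7 CPM in it against 2348 to 19411 in the other 3 animals. In P15 and P10 the animal TENA2483 stood apart by its lymphocyte transcripts. P15 of the Tnc line rests on 3 animals, 1 of which (TENA2524) contributed 1 library of 508631 counts. Of the 17 empty wells, 6 had reads of these genes. Among them a well with 44339 counts held 1156 reads of Apoe, 284 of C1qb, 64 of C1qc, 40 of Ctss and 1 of C1qa, and a well with 256675 counts held 450 of Apoe. Over the 341015 counts of all empty wells together, C1qb was at 859.2 CPM and Apoe at 5158 CPM. Reads of these genes thus occurred in wells without sorted cells, at low totals but not only at low CPM, so a high level in 1 library of few counts is not by itself a measure of its cells.

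The 3 C1q genes lie side by side on the minus strand of chromosome 4 (GRCm38, GENCODE M21), C1qb (ENSMUSG00000036905) at chr4:136880129-136886187, C1qc (ENSMUSG00000036896) at chr4:136889804-136893065 and C1qa (ENSMUSG00000036887) at chr4:136895917-136898803, within 18675 bases. Apoe (ENSMUSG00000002985) is at chr7:19696109-19699188 on the minus strand, Mrc1 (ENSMUSG00000026712) at chr2:14229392-14332057 on the plus strand with Mir511 inside it, Ms4a7 (ENSMUSG00000024672) at chr19:11321039-11336146 on the minus strand and Ctss (ENSMUSG00000038642) at chr3:95526786-95556403 on the plus strand with the pseudogene Hmgb1-ps5 inside it. Because Mir511 and Hmgb1-ps5 lie on the strand of their hosts, reads there cannot be told apart from those of the host by strand.

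RefSeq promoter windows (GRCm38.p6) of 300 bases, 250 before and 50 after a start site, were matched for 6 of the 7 genes, 9 windows in all. Those of 4 genes are printed because C1qb and C1qc moved together across libraries while Mrc1 and Ms4a7 varied among the libraries with C1q. Capitals mark exact matches of GAGGAA on either strand, the core of sites bound by the myeloid factor PU.1. The C1qb window is chr4:136886151-136886450, that of C1qc chr4:136892865-136893164, that of Ms4a7 chr19:11336097-11336396, all 3 on the minus strand, and that of Mrc1 chr2:14229164-14229463 on the plus strand.

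C1qb: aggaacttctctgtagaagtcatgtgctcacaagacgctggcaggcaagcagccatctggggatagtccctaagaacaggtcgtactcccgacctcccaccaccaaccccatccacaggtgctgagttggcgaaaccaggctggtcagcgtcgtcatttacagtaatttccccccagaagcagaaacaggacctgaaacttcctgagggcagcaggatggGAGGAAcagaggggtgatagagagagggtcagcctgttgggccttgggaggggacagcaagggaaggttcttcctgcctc
C1qc: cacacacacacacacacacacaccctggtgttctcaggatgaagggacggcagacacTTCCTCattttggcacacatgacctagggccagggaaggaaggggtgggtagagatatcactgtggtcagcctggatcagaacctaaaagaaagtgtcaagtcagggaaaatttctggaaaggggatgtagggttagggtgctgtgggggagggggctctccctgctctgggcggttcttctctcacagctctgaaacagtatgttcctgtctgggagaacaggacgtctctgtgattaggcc
Ms4a7: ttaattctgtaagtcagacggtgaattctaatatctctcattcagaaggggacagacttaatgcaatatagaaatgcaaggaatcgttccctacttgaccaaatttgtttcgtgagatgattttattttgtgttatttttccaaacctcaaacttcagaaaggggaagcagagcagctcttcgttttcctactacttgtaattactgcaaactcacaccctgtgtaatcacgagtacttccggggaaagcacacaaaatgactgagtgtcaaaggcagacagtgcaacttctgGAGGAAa
Mrc1: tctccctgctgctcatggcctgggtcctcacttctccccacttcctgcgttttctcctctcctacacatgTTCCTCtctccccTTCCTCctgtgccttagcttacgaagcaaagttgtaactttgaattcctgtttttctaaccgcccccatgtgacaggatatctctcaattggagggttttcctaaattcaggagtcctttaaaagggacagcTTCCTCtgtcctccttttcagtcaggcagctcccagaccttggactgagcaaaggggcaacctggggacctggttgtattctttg

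GAGGAA was found 30 bases before the start in C1qb, 193 before it in C1qc and 44 after it in Ms4a7, and 3 times in Mrc1, of which the nearest lay 35 before the start. The window of Ctss and windows of Apoe hold it too, but the Apoe window with TATAAA and the Ms4a7 window not printed here do not. Of all 32851 windows 28.3% hold it, a share per window and not per gene. TATAAA occurred in a window of Apoe and in that of Ctss (13.6% of all windows), TGANTCA in another window of Ms4a7 (7.81%) and CACGTG in none of the 9 (7.15%). These matches are letters in a window and do not show that a factor is bound. In C1qb, alone among the 9 windows, the first bases after the start were not found in an annotated transcript of the gene. The position given for C1qb is thus relative to the RefSeq start only.

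C1q transcripts were high in a minority of libraries and near 0 in the rest. All 3 chains were held by 21 of 335 libraries, from 5 of 10 animals, another 8 libraries held 1 or 2 chains and 306 held none. The 21 comprised 9 of 32 libraries of P05, 5 of 12 of P15, 4 of 25 of P10 and 1 of 11 of P17 in the Tnc line, and 2 of 10 of P05 in the Cdh2 line. None of the 55 libraries of P18, 50 of P22, 48 of P09 and 26 of P16 in the Tnc line held all 3, nor any of the 50 of P18 and 16 of P15 in the Cdh2 line. These zeros depend on the threshold: at 1 read, all 3 chains were found in 30 libraries, among them 1 of P18, 3 of P22 and 1 of P16 in the Tnc line. The threshold of 1 read raised the number of libraries holding C1qa from 23 to 39, C1qb from 26 to 48 and C1qc from 22 to 44. The animal TENA2517 alone gave 11 of the 21 libraries, and 10 of 289 remained without it, from 4 animals.

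**Figure D1:**
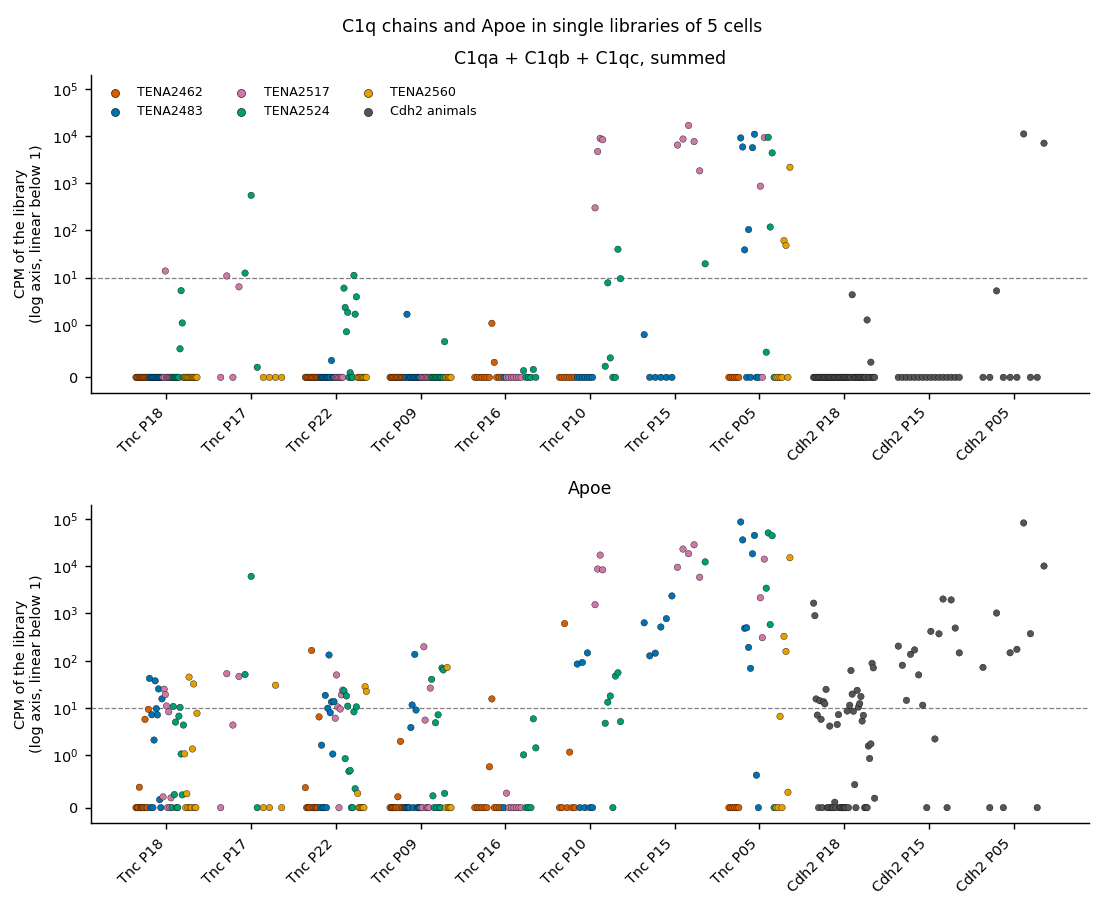
Summed level of C1qa, C1qb and C1qc (top) and level of Apoe (bottom) in each of the 335 libraries, by population; 1 point is 1 library of 5 cells, colours are animals, the y axis is CPM on a log scale that is linear below 1, and the dashed line is 10 CPM. Libraries with high C1q lie mainly in P10, P15 and P05, whereas Apoe also reaches 10 CPM in 11 of the 55 P18 libraries of the Tnc line.

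The P15 libraries that passed quality control and held all 3 chains came from 1 animal. All 5 P15 libraries of TENA2517 held the 3 chains, as did all 4 of its P10 libraries and 2 of its 3 P05 libraries. None of the 6 P15 libraries of TENA2483 did, although 4 of the 10 P05 libraries of that animal did. TENA2524 gave 1 P15 library, with C1qc at 11.8 CPM and C1qb at 7.86, and 2 of its 5 P05 libraries held all chains. Of TENA2560, 1 of 8 P05 libraries held them, and of TENA2462 none of 6. In passed libraries of EpCAM-negative cells that had kept mCherry all 3 chains were thus found in 4 of 5 animals, and in those of EpCAM-negative GFP cells in 1 of 3. Of the libraries that failed quality control, 4 of 11 from P15 (9914 to 349647 counts each) and 2 of 28 from P05 also held all 3. Those were not counted by animal, so the numbers of animals hold for passed libraries only.

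Within the 21 libraries the chains were abundant and varied together. C1qa ranged from 100.3 to 6356 CPM (median 2608), C1qb from 45.8 to 6954 (median 2605) and C1qc from 15.2 to 3417 (median 1589). The highest level of each was in the same library, R4 of TENA2517 in P15. Per kilobase of exon, the median ratio of C1qa to C1qb was 0.985 and that of C1qc to C1qb 0.349, with a highest value of 0.645, so that C1qc lay below C1qb by length in all 21. The ratio of C1qa to C1qb ran from 0.240 in R2 of TENA2524 in P17, where C1qa and C1qc were lowest, to 5.09 in R1 of TENA2517 in P10, where C1qb was lowest. Over all 335 libraries the log2(CPM + 1) values of the chains had Pearson correlations of 0.943 (C1qa and C1qb), 0.961 (C1qa and C1qc) and 0.949 (C1qb and C1qc), a description in which most libraries lie at 0 for both genes.

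The other macrophage genes accompanied C1q to different extents. Apoe was held by 21 of the 21 libraries, at 1537 to 86772 CPM (median 17244), and so was Ctss, at 28.2 to 8851 CPM (median 2937). Ms4a7 was held by 18 of 21 (median 268, at 0 reads in 3) and Mrc1 by 12 of 21 (median 38.3, at 0 reads in 8). Mrc1 was at 0 in all 4 of the P05 libraries with C1q from TENA2483 but at 174 and 128 CPM in the 2 from TENA2517. Its correlations with the other 6 genes, 0.486 to 0.588, were the lowest within the group. The 7 genes together took 10.2% of all counts in R1 of TENA2483 in P05 and 10.1% in R5 of Cdh1725 in P05.

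**Figure D2:**
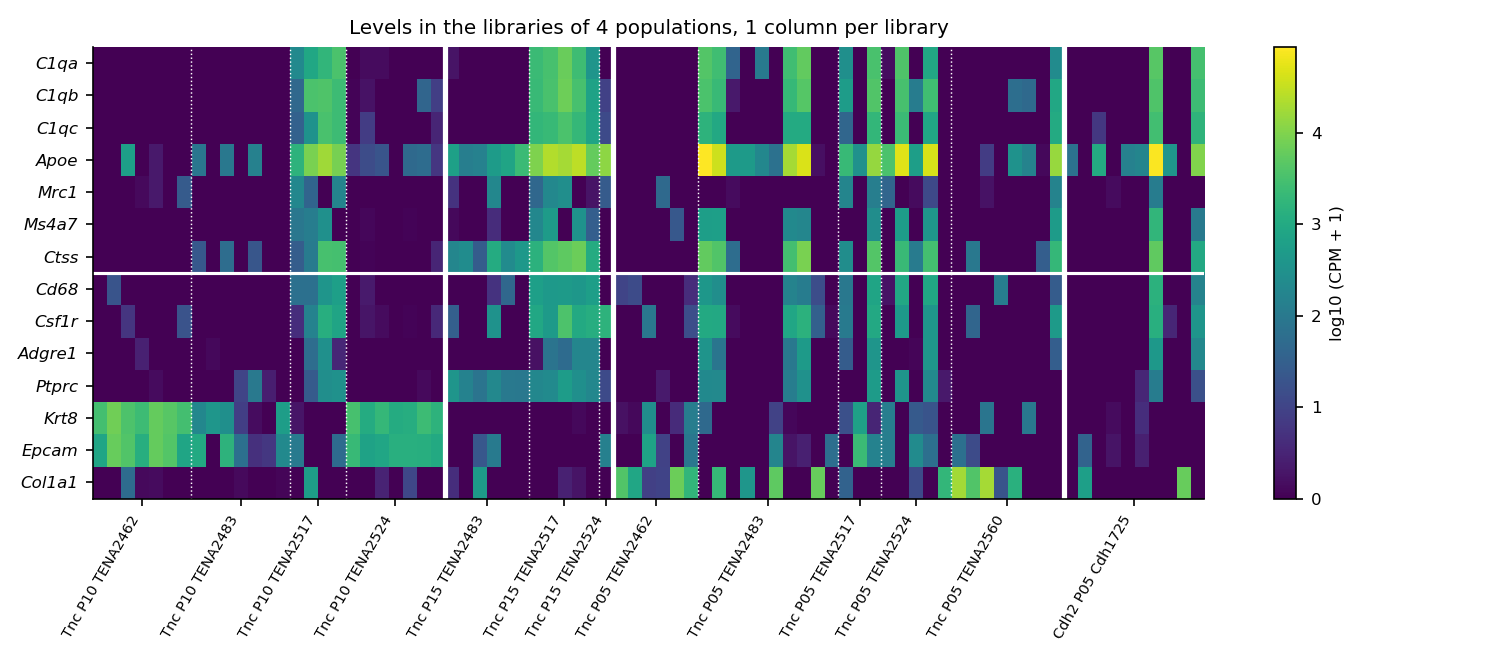
Levels of the 7 genes (above the white line) and of 7 markers (below it) in every library of P10, P15 and P05 of the Tnc line and P05 of the Cdh2 line; each column is 1 library, colour is log10(CPM + 1), solid lines part populations and dotted lines part animals. Columns with C1q also show Apoe, Ctss, Cd68 and mostly Csf1r, and few show Krt8 or Epcam.

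Markers of macrophages and leukocytes moved with C1q in these libraries, and epithelial markers mostly did not. Of the 21 libraries with 3 chains, 21 held Cd68, a lysosomal membrane protein of macrophages, 20 held Csf1r, the receptor of the macrophage growth factor CSF1, and 17 held Adgre1, which encodes F4/80. Ptprc, which encodes the pan-leukocyte antigen CD45, was held by 17. Of the 306 libraries with no C1q chain, 110 held Cd68, 26 Csf1r, 7 Ptprc and 0 Adgre1. Cd68 was thus not particular to the libraries with C1q. Krt8, a keratin of simple epithelia, was held by 4 and reached at most 47.5 CPM, and Epcam was held by 4 and reached at most 153 CPM. Col1a1, a fibroblast collagen, was held by 3, and 14 of the 21 held neither Krt8 nor Epcam. With 5 cells in a pool, whether these transcripts come from 1 macrophage among other cells, from several or from free RNA was not tested, and fewer such cells and less RNA per cell cannot be told apart.

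Over all 335 libraries and 14641 genes, the non-member genes most like the summed C1q chains were Tyrobp (Pearson r = 0.892), Fcer1g (0.884), Fcgr3 (0.879), C3ar1 (0.872) and Adgre1 (0.857), followed by Gm49339, Lilrb4a, Aif1, Lair1 and Pld4 (0.849 to 0.831). Tyrobp and Fcer1g encode signalling adaptors of myeloid receptors, Fcgr3 an Fc receptor and C3ar1 the receptor of the complement fragment C3a. Ms4a7 was most like Tyrobp (0.858), Fcgr3 (0.857) and Adgre1 (0.853), and Ctss most like Laptm5 (0.905), Fcgr2b (0.874) and Cd86 (0.869). Mrc1 was most like Cyth4 (0.714), Pf4 (0.701) and Spi1 (0.677), and Apoe most like Fcer1g (0.724), Laptm5 (0.715) and Tyrobp (0.70). All these values rest on the few libraries at high levels and carry no test.

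Apoe and Ctss were also present where C1q was not. Apoe was held by 118 of 335 libraries from all 10 animals, and 89 of these held no C1q chain. Of the 89, 64 held both Krt8 and Epcam. Apoe reached 1000 CPM in 28 libraries from 7 animals, of which 21 held C1qa. Ctss was held by 43 libraries, 20 of them without C1q. Those 20 included the 6 P15 libraries of TENA2483, at 26.2 to 1105 CPM.

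These 6 P15 libraries and R5 of P10 from the same animal were the 7 libraries with Ptprc and no C1q chain. Adgre1 was held by 0 of the 7 and Cd68 by 1, whereas the summed level of 12 lymphocyte markers reached 1253 CPM in the P15 sum of TENA2483, against 6.19 in that of TENA2517 and 0 in that of TENA2524. Among those markers, Cd79a was at 615 CPM and Ms4a1 at 286 in the P15 sum of TENA2483, both genes of B lymphocytes and named here after their values were seen. Apoe in these 6 P15 libraries was 127 to 2356 CPM, below its range in the 5 of TENA2517, 5850 to 28572. Whether the lymphocyte transcripts bear on Ctss and Apoe there was not tested.

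Summed per animal, the C1q chains of the Tnc line were highest in P15, P05 and P10. C1qb, for example, averaged 970 ± 1675 CPM (SD, n = 3) in P15, 941 ± 936 (n = 5) in P05 and 557 ± 1110 (n = 4) in P10, 4.69 ± 7.51 (n = 3) in P17 and at most 0.371 in P18, P22, P09 and P16. Its single sums were 0, 6.42 and 2905 CPM in P15 (TENA2483, TENA2524 and TENA2517), and 0, 43.0, 1027, 1449 and 2185 in P05 (TENA2462, TENA2560, TENA2517, TENA2483 and TENA2524). In P10 it was 2222 CPM in TENA2517, 5.16 in TENA2524 and 0 in the other 2 animals. The SD exceeded or came close to the mean in all 3 populations, so their order is within the spread between animals. C1qa was 0, 0.104 and 2626 CPM in P15 (TENA2524, TENA2483 and TENA2517) and 0, 8.5, 817, 1576 and 1854 in P05, where TENA2483 and not TENA2524 was highest. C1qc was 0, 9.63 and 1932 CPM in P15, and 0, 35.7, 414, 584 and 1107 in P05. Its mean was higher in P10 (504 CPM) than in P05 (428), the reverse of the other chains. For all 3 chains TENA2517 was the highest animal in P15 and P10, and TENA2462 was at 0 in P05. In the Cdh2 line the 1 animal with P05 had C1qa at 655, C1qb at 532 and C1qc at 376 CPM, while none of the chains had a read in the 3 P15 sums, which allows up to 0.0207 CPM over that population.

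**Figure D3:**
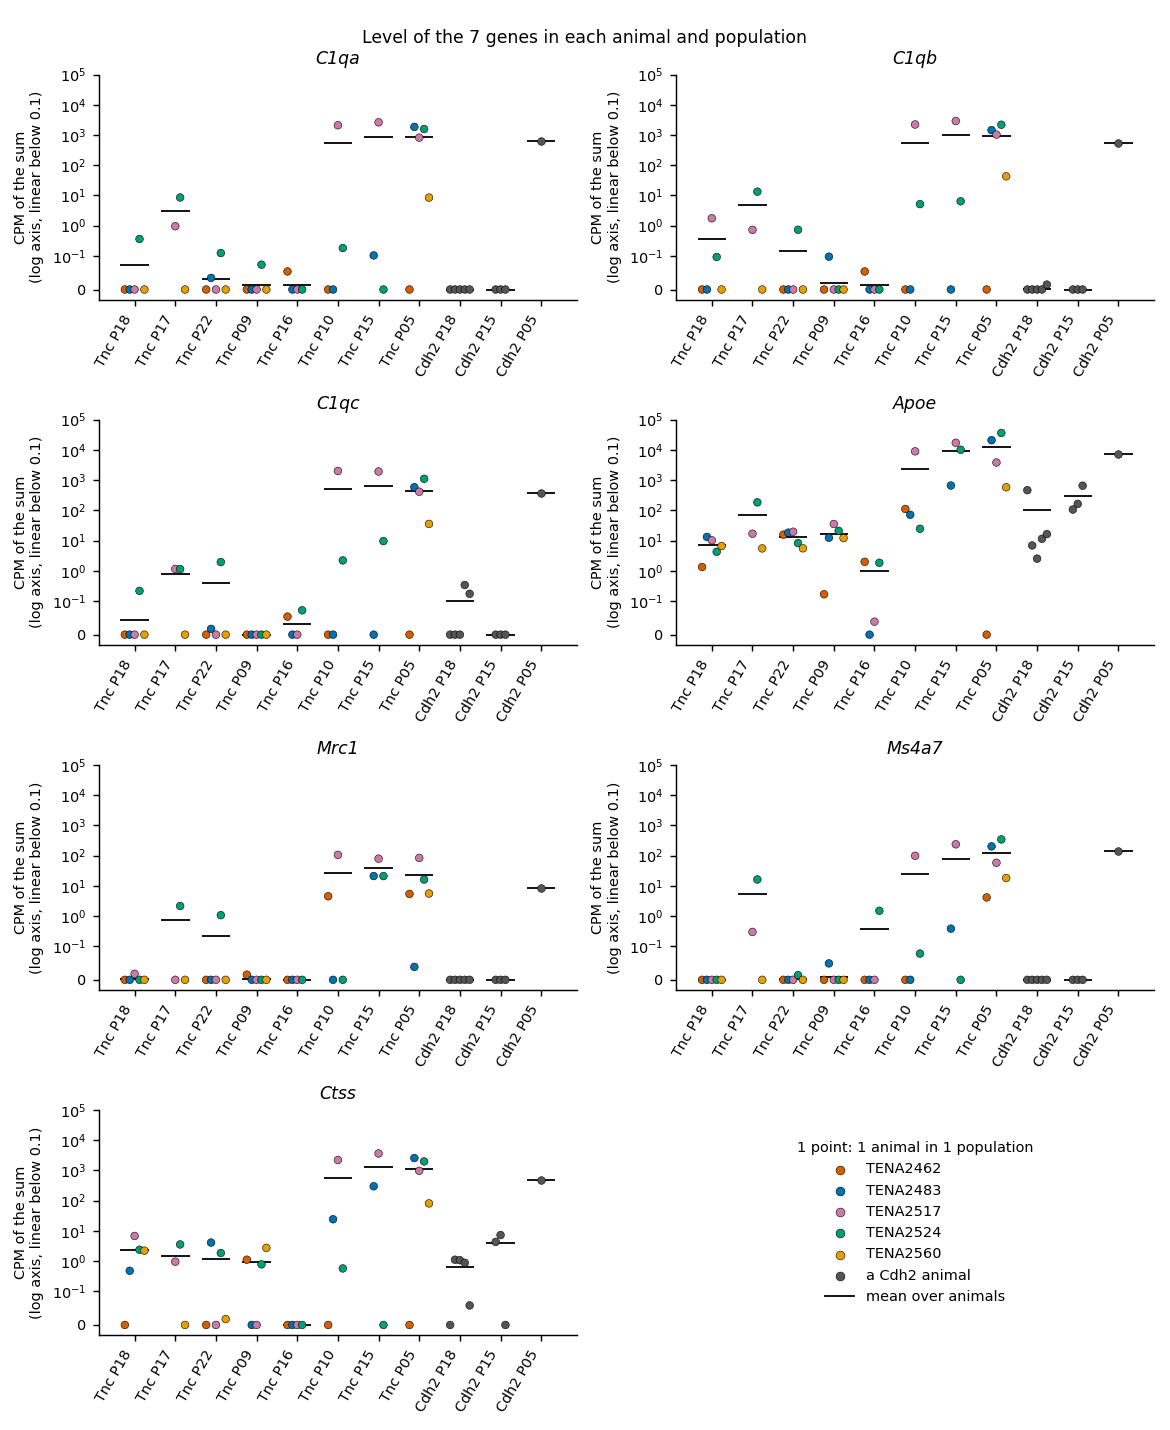
Level of each of the 7 genes in each animal and population, as CPM of the summed libraries with TMM scaling, on a log axis that is linear below 0.1; 1 point is 1 animal, colours are the Tnc animals, and the line is the mean over animals. In P05 the sum of TENA2462 is at 0 for the 3 C1q chains, Apoe and Ctss, and in P10 that of TENA2517 is the highest for each of the 7 genes.

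The comparisons of P15, P05 and P10 share their P18 sums. Which of these genes were higher in EpCAM-negative GFP cells than in the epithelial tumour cells was asked by comparing P15 with P18. Apoe and Mrc1 rose, 2 of 7 genes at an adjusted p under 0.05 (edgeR quasi-likelihood test with Benjamini-Hochberg adjustment), where 0.729% of 33768 genes passed in either direction and 0.198% passed higher. Apoe was 664, 10101 and 17181 CPM in the 3 P15 sums and 1.34, 4.27, 6.59, 10.2 and 13.2 CPM in the 5 P18 sums. The groups did not overlap, and P15 was higher in 3 of 3 animals (log2 fold change 9.20 ± 2.27 SE, adjusted p = 0.0485). The 10101 CPM of TENA2524 came from 1 library. Apoe was at 5158 CPM in the pooled empty wells, from 1759 reads, above the 664 CPM of TENA2483. Mrc1 was 20.9, 20.9 and 78.7 CPM in P15, while P18 had 1 read in all, in TENA2517. Its log2 ratio of pooled counts was 13.82 (95% interval 11.34 to 19.12, exact binomial, counting error only), it was higher in 3 of 3 animals and its adjusted p was 0.0304. With 1 read in P18, Mrc1 passed the filter on low counts through other groups, so its direction was all but fixed in advance. The value of TENA2524 was 13 reads in 1 library, and in TENA2483 Mrc1 was held by 1 of 6 libraries. In the pooled empty wells Mrc1 was at 8.797 CPM, from 3 reads.

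The other 5 genes were high in 1 P15 animal or in a pair of them and did not pass. Ms4a7 was 0, 0.381 and 235 CPM in P15 and had 0 reads in P18, a log2 fold change of at least 13.22 against 3 counts over P18 (adjusted p = 0.0915). The fitted log2 fold change was 11.66 ± 4.55 for C1qa (adjusted p = 0.216), 9.51 ± 3.42 for C1qb (0.186), 10.41 ± 4.18 for C1qc (0.234) and 6.85 ± 3.57 for Ctss (0.368). Ctss was 0, 299 and 3646 CPM in P15, so that TENA2483, with no C1q chain above 0.104 CPM, was between the others. The median of the 7 was 10.41, with Ms4a7 at its bound or not, and that of all genes -0.61 (-0.18 with RLE size factors). Both calls depended on the animals in the fit: without TENA2517, TENA2483, TENA2462 or TENA2560 none of the 7 passed, and without TENA2524 Mrc1 alone did. TENA2462 and TENA2560 gave no P15 sum and enter this comparison only through the shared fit. With 1 animal left out, the log2 fold change ran from 8.66 to 10.23 for Apoe and from 11.82 to 16.80 for Mrc1. DESeq2 called 5 of the 7, where it called 15.7% of all genes. Without the animal block edgeR called 6 (3% of all genes), and with the libraries that failed quality control 5 (1.99%).

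In P05, EpCAM-negative cells that had kept mCherry, Apoe and Ms4a7 rose against P18, again 2 of 7, where 0.545% of genes passed in either direction and 0.352% passed higher. Ms4a7 was 4.11, 18.0, 57.6, 201 and 342 CPM in the 5 P05 sums and had 0 reads in P18. The lowest, in TENA2462, was 56 reads, and 1 of its 6 P05 libraries held the gene. That library held Col1a1 but no C1q chain, Apoe, Ctss, Ptprc or Cd68. In the pooled empty wells Ms4a7 was at 5.865 CPM, from 2 reads. The groups did not overlap, P05 was higher in 5 of 5 animals, and the log2 fold change was at least 13.50 against 3 counts over P18 (adjusted p = 0.0277). With 0 reads in P18, Ms4a7 passed the filter on low counts only through other groups. Its direction was thereby fixed in advance, and its p is not a test of that direction. Apoe was 581, 3831, 20942 and 36394 CPM in 4 P05 sums but 0 in that of TENA2462, so that the groups overlapped (higher in 4 of 5 animals, log2 fold change 10.20 ± 2.26, adjusted p = 0.0325).

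The C1q chains and Mrc1 came close to the threshold in P05. The log2 fold changes were 14.08 ± 3.48 for C1qa (adjusted p = 0.0571), 14.48 ± 3.61 for C1qb (0.0586) and 14.59 ± 3.50 for C1qc (0.056), each higher in 4 of 5 animals. Mrc1 was higher in 5 of 5 animals, at 0.0385, 5.36, 5.54, 16.0 and 83.3 CPM, with a log2 ratio of pooled counts of 11.98 (interval 9.50 to 17.29, adjusted p = 0.0571). The lowest of these, in TENA2483, was 1 read against 0 in its P18 sum. Ctss was 0, 81.3, 974, 1985 and 2567 CPM against at most 6.82 in P18 (log2 fold change 8.17 ± 3.00, adjusted p = 0.213). The median of the 7 was 14.08, or 13.50 with Ms4a7 at its bound, and that of all genes -0.15 (0.17 with RLE size factors). Leaving out TENA2462, TENA2483, TENA2524 or TENA2560 left none of the 7 called, and leaving out TENA2517 left Ms4a7 and the 3 chains. DESeq2 called all 7, where it called 15.3% of all genes, and edgeR restricted to P05 and P18 called none of the 7 and 0.0119% of genes.

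**Figure D4:**
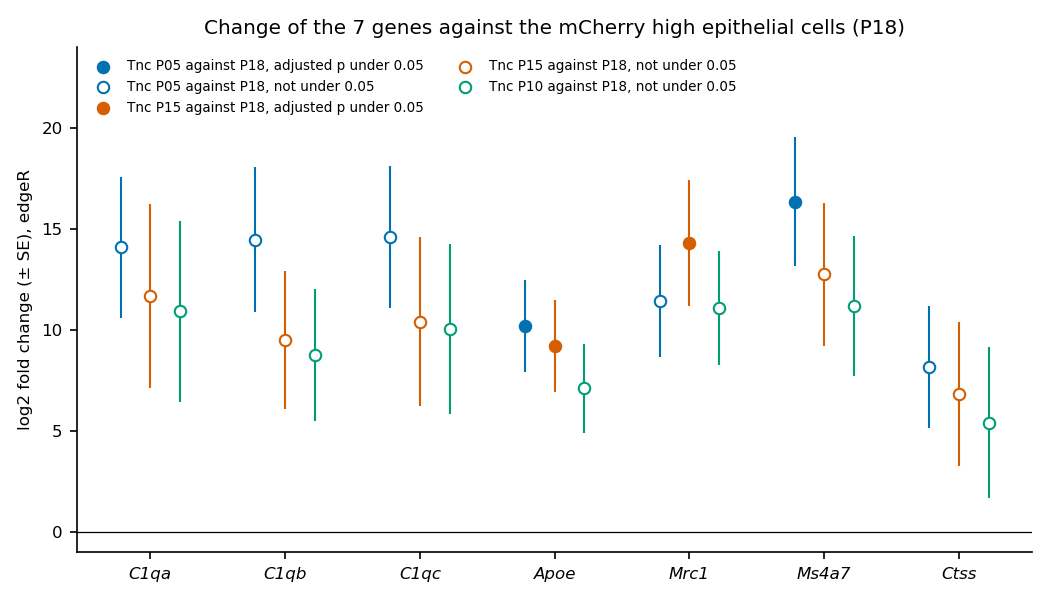
Fitted log2 fold change (± SE) of each gene against P18 in the Tnc line for P05, P15 and P10; filled points have an adjusted p under 0.05 and open points do not. Fitted values for Ms4a7, with 0 reads in P18, and Mrc1, with 1 read, depend on the small counts added in the fit, and their bound and ratio of pooled counts are given in the text.

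In P10, EpCAM-low GFP cells, none of the 7 passed against P18 with edgeR, where 0.00296% of genes passed. At an unadjusted p under 0.05 there were 6, among 2779 genes in all, and DESeq2 called 4 (Apoe, Ms4a7, Mrc1 and C1qa), where it called 5.6% of all genes. Apoe did not overlap between the groups, at 24.6, 71.5, 111 and 8975 CPM in P10 (log2 fold change 7.11 ± 2.19, adjusted p = 0.473). TENA2517 had the highest P10 level of each gene. Without that animal the log2 fold change was -0.73 for C1qa, -0.66 for Ctss, 4.62 for C1qb, 2.72 for C1qc and 3.37 for Apoe, with adjusted p of 0.847 or more. Mrc1, at 4.48 CPM in TENA2462, had a fitted value of 8.41 without it (adjusted p = 0.825).

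In the EpCAM-positive populations these transcripts stayed low. None of the 7 passed in P16 (0.00296% of genes passed), P09 (0%), P22 (0%) or P17 (0%) against P18 with edgeR, and 2064, 851, 716 and 1695 genes had an unadjusted p under 0.05 in P16, P09, P22 and P17. At that level 2 of the 7 genes stood out in P16 (Ms4a7 and Ctss), 1 in P17 (Ms4a7) and none in P09 or P22. DESeq2 called Ms4a7 in P16, P09 and P17, and lower levels of Mrc1 and Ctss in P16 and of C1qc in P09, calls that rest on 0 to 18 reads except for Ms4a7 (41 reads in P16, 3 in P09, 235 in P17) and Ctss (804 in P18). Over all genes DESeq2 called 1306 in P16, 1332 in P09 and 1821 in P17. Apoe averaged 7.14 ± 4.72 CPM (n = 5) in P18, 13.5 ± 6.25 (n = 5) in P22, 16.3 ± 13.1 (n = 5) in P09, 0.969 ± 1.10 (n = 4) in P16 and 69.0 ± 100.2 (n = 3) in P17. The SDs of P18, P22 and P09 overlap, and the P17 mean rests on 184 CPM in TENA2524, against 5.52 and 16.9 in the others. That sum includes library R2, the only 1 of 11 from P17 with the 3 chains, which held 329160 counts, no Ptprc and Krt8 at 21.3 CPM.

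No difference between the 2 EpCAM-negative populations passed for any of the 7 genes. P15 against P05 gave log2 fold changes between -4.97 ± 3.71 for C1qb and 2.89 ± 2.57 for Mrc1, with adjusted p from 0.714 to 1. None had an unadjusted p under 0.05, 1 (C1qc) had with DESeq2, which called none, and 0.136% of all genes passed. Against P10, P15 gave 0.35 ± 3.08 for C1qc to 3.23 ± 2.53 for Mrc1 (adjusted p 0.732 to 1), none had an unadjusted p under 0.05 with either tool, DESeq2 called none and 0.222% of all genes passed. With these standard errors, changes of several log2 units in either direction were not detectable.

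In the Cdh2 line, EpCAM-negative GFP cells held Apoe but no C1q. Apoe was 107, 164 and 654 CPM in the 3 P15 sums and was held by 13 of 16 libraries. In P18 it was 2.54, 6.91, 11.5, 16.4 and 465 CPM, so the groups overlapped (log2 fold change 3.62 ± 3.15, adjusted p = 1). Ctss was 0, 4.32 and 7.28 CPM in P15 and 0 to 1.11 in P18. C1qa, Mrc1 and Ms4a7 had no read in either population and C1qb 1 read in P18. With edgeR none of the 7 passed, where 0% of all genes passed. None of the 7 had an unadjusted p under 0.05 there, where 1215 genes did. DESeq2 called C1qc lower (0 reads in P15 and 59 in P18), among 1866 genes that it called in all. Epithelial markers summed to 90.6 to 199 CPM in these P15 sums, and 5 of 8 pan-leukocyte markers, Ptprc, Tyrobp, Laptm5, Cd52 and Cd53, had 0 reads.

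In the direct comparison of P15 between the lines, Apoe, Ctss and Mrc1 passed the filter on low counts, and Apoe and Ctss were lower in the Cdh2 line. For Apoe the log2 fold change was -5.03 ± 1.37 (adjusted p = 0.122) and Ctss of -8.40 ± 3.23 (0.341). Mrc1, with 0 reads in the Cdh2 sums, passed that filter only through its reads in the Tnc sums. Its direction was thereby fixed in advance, and its p is not a test of it. The log2 fold change of Mrc1 was -10.93 or lower against 3 counts. Apoe and Ctss had an unadjusted p under 0.05, where 1485 genes did in all. None passed the adjustment with edgeR (0% of 14028 genes). DESeq2 called Apoe, Ctss and Mrc1, among 1239 genes that it called in all. The C1q chains and Ms4a7 did not pass the filter and were not tested. In the difference of P15 against P18 between the lines none of the 7 passed (0.00888% of genes passed). C1qc had an unadjusted p under 0.05, where 2342 genes did in all. DESeq2 called 4 of the 7 in that difference, among 3612 genes in all. All Cdh2 animals were sequenced on the second lane and 4 of 5 Tnc animals on the first, so line and lane can hardly be told apart. Within the Tnc line, the 55 libraries on lane 2 (TENA2524) included 3 with all chains and the 204 on lane 1 included 16.

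Other genes of the complement and lipid pathways were counted list by list. Of the 11 receptors of C1q and complement fragments, 4 rose in P05 against P18: Itgam and Itgax, the alpha chains of complement receptors 3 and 4, C5ar1, the receptor of C5a, and Lrp1, a scavenger receptor that also binds apolipoprotein E. The log2 fold change of Lrp1 was 10.66 ± 2.51 (adjusted p = 0.0442). C5ar1 and Itgax had 0 reads in P18, with log2 fold changes of at least 14.13 and 11.73, and Itgam had 1 read there and 1314 in P05. C5ar1 and Itgax thus passed the filter on low counts only through other groups, and their direction was fixed in advance. The list had a median of 10.66, or 9.87 with genes at 0 reads at their bound. None of the 11 passed in P15, with a median of 7.76, or 7.60 with bounds. C3ar1, named after its values were seen, averaged 66.1 ± 74.0 CPM in P05 and 0.05 ± 0.112 in P18 (n = 5 each).

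The partners of C1q in the classical pathway did not pass. Of 17 tested proteases and later components of complement, 0 were called in P15 or P05, with medians of -1.05 and 0.68, or -2.10 and 1.17 with bounds. C1ra, C1s1 and C3 are named for their roles, after their values were seen. C1ra, the protease that C1q activates, averaged 23.2 ± 28.8 CPM in P05, 4.03 ± 6.98 in P15 and 1.76 ± 1.86 in P18, and C1s1, its substrate, 34.5 ± 41.3, 4.07 ± 6.65 and 0.0169 ± 0.0272. C3, the central component, ran the other way, at 0.180 ± 0.346 CPM in P05 and 14.2 ± 14.6 in P18, without passing. Of 10 inhibitors 0 were called, with medians of -1.22 in P15 and 1.52 in P05, or -2.55 and 1.52 with bounds.

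Of 26 partners of apolipoprotein E and lipid genes, Pltp, the phospholipid transfer protein, rose in P15 (log2 fold change 3.99 ± 0.77, adjusted p = 0.0109) and in P05 (3.58 ± 0.70, adjusted p = 0.024), and Lrp1 in P05. The list's medians were 0.44 and 2.36, or 0.70 and 2.13 with bounds. Of 22 other cathepsins, cystatins and lysosomal genes, Lgmn, a lysosomal cysteine protease, rose in P05 (6.13 ± 1.42, adjusted p = 0.0406) and none in P15, with medians of 0.85 and 1.35, or 1.01 and 1.40 with bounds. None of the 4 tested mannose receptor relatives and 10 tested Ms4a relatives passed in either comparison, with medians of 3.82 and 5.69 for the former and 6.71 and 7.75, or 8.33 and 8.19 with bounds, for the latter. Of 23 tested further tissue macrophage markers, Maf, a transcription factor of macrophages, rose in P05 (10.27 ± 2.37, adjusted p = 0.039), with medians of 4.51 in P15 and 7.10 in P05.

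Markers of other cell types moved in the same comparisons, and their part in the values of the 7 genes was not tested. Of 8 pan-leukocyte markers, Coro1a, Fcer1g and Laptm5 rose in P15, and Coro1a and Fcer1g in P05. The list's medians were 12.66 and 11.91, unchanged with bounds. Its summed level was 1791 to 6433 CPM in P15, 6.69 to 3720 in P05, 2.86 to 4801 in P10 and 31.6 to 85.6 in P18, where Ptprc was at 0. Among 8 monocyte and neutrophil markers Plac8 rose in P15, and none did in P05. No dendritic cell, lymphocyte or endothelial marker passed in either comparison. Of 9 fibroblast and pericyte markers, Lum rose in P15, and Col1a1, Lum, Col3a1 and Col1a2 in P05, where the sum reached 15683 CPM in TENA2462, the animal with 0 C1q reads in P05. Lum had 0 reads in P18, so its direction was fixed in advance. Of 8 epithelial markers, 6 fell in P15, among them Cldn3, Cldn7, Krt8 and Cldn4, and 3 fell in P05 (Cldn4, Cldn7 and Krt8).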

How the data were processed

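RNA was measured in pools of 5 sorted cells by Smart-seq2. The unit of the deposited table is raw read counts per gene, which the authors made with STAR, SAMtools and featureCounts of the Subread package on mm10, per the submitters' processing notes. The sources used here give no versions and do not say whether strand was used. The quality flag is the authors' own, and 335 libraries carry it, with a median of 5378503 counts. The 152 that failed and 17 empty wells entered no main comparison.

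Counts were summed per animal and population. edgeR 4.0.16 (R 4.3.3) was run with TMM scaling, filterByExpr by group and a robust quasi-likelihood fit over all 43 sums, with the animal as a block and population terms within each line (33768 genes). P15 was compared between lines without the block (14028 genes). Calls had a Benjamini-Hochberg adjusted p under 0.05 over all genes tested. A gene with 0 reads in P18 could pass the filter only through other groups, so its direction against P18 was fixed in advance. The SE is the absolute log2 fold change divided by the square root of F. Levels of libraries are plain CPM and those of sums use TMM. The labels name the mouse of each library, so same-animal sums are paired. Their deviations from the group means had a median correlation of 0.0752 over 105 pairs, against -0.0145 over 413 pairs from different animals. Intervals and floors (3 counts) cover counting error only.

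Named genes are the 7 members, up to 4 called genes of each list by adjusted p, and the 10 genes most like summed C1q and 3 most like each other member, with exceptions stated. The members and the lists of related genes and cell type markers were chosen with earlier results of these data known. Alternatives were DESeq2 1.42.0, RLE size factors, no filter on low counts, equal weight of libraries, sums of at least 3 libraries, failed libraries added, no block, only the populations compared, and leaving out each animal. Promoter sequences are from RefSeq.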

Additional observations from a re-analysis of the deposited data

Results flagged for a closer look

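In 26 of 42 combinations of a gene and a population with 4 or 5 animals, the highest or lowest sum stood apart from the others by Dixon's criterion. The criterion's rate of about 1 in 20 by chance does not apply to that count, since the genes share animals and a group at 0 reads but for 1 animal passes by construction. TENA2517 was the animal apart in P10 for all 7 genes, at 8975 CPM for Apoe, 2100 for C1qa, 2222 for C1qb, 2015 for C1qc, 2213 for Ctss, 105.1 for Mrc1 and 97.97 for Ms4a7, and in P05 for Mrc1 at 83.26 CPM. In P18 of the Cdh2 line Apoe was 464.9 CPM in Cdh1624 against 2.536 to 16.41 in the others.

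The remaining 17 such sums were at most 1.95 CPM, in groups where most animals had 0 reads. In P18 of the Tnc line they were C1qa at 0.3628 and C1qc at 0.2177 CPM in TENA2524, and C1qb at 1.758 and Mrc1 at 0.01776 in TENA2517. In P22 all 5 were in TENA2524, with C1qa at 0.1245, C1qb at 0.7331, C1qc at 1.95, Mrc1 at 1.065 and Ms4a7 at 0.01383 CPM. In P09 they were C1qa at 0.07385 CPM in TENA2524, C1qb at 0.09774 and Ms4a7 at 0.04887 in TENA2483, and Mrc1 at 0.01526 in TENA2462. In P16 C1qa and C1qb were each at 0.05376 CPM in TENA2462 and Ms4a7 at 1.486 in TENA2524. In P18 of the Cdh2 line C1qb was at 0.01453 CPM, 1 read, in Cdh1803.

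The libraries that failed quality control held C1qa at 34.51, Mrc1 at 10.43 and Ms4a7 at 10.23 CPM over their pooled counts, against 2.932, 8.797 and 5.865 CPM in the pooled empty wells. The empty-well values rest on 1, 3 and 2 reads, and the difference for Mrc1 was not tested against counting error. The other 4 genes were lower in failed libraries than in empty wells, at 438.7 against 5158 CPM for Apoe and 38.14 against 859.2 for C1qb.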

How the results depend on the processing

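The calls among the 7 genes depended on the processing. Of 159 alternative counts of called members over 12 comparisons, 128 stayed within 1.5 times the main count, and 15 fell and 16 rose beyond it. For P15 against P18 (main count 2) the count was 5 with DESeq2, 5 with failed libraries added, and 1 with no filter on low counts, with libraries weighted equally or with sums of at least 3 libraries. For P05 against P18 (main count 2) it was 7 with DESeq2, 6 with failed libraries added, 6 with sums of at least 3 libraries, 4 with RLE size factors, 1 with no filter, 1 with libraries weighted equally and 0 with only the populations compared. Without the replicate block by animal, P15 gave 6 and P05 gave 5. Leaving out 1 animal gave 0 to 1 for P15 and 0 to 4 for P05. DESeq2 called 4 in P10, 3 in P16, 2 in P09 and 1 in P17 against P18, 1 in P15 against P18 of the Cdh2 line, 4 in the difference between lines and 3 in P15 between lines. In the same order it called 1890, 1306, 1332, 1821, 1866, 3612 and 1239 genes in all. The cause of these changes in the calls was not tested.

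Of 462 alternative fold changes of single genes, 18 changed sign, none of them in a comparison where the gene was called. Without the block, log2 fold changes of P15 against P05 were 0.042 for C1qa, 0.046 for C1qb, 0.60 for C1qc and 0.23 for Ctss, and with failed libraries added 0.017 for Apoe. Leaving out 1 animal, the same comparison ran from -13.06 to 1.03 for C1qa, -10.34 to 0.48 for C1qc, -1.71 to 0.49 for Apoe, -0.33 to 5.58 for Mrc1 and -4.35 to 0.68 for Ctss. P10 against P18 ran from -0.73 to 15.69 for C1qa and -0.66 to 7.03 for Ctss. For C1qc in P15 against P10 the range was -0.054 to 1.71, with -0.0006 under RLE size factors. Ctss in P15 against P18 of the Cdh2 line ran from -1.51 to 3.70, with -1.26 from sums of at least 3 libraries. The effect of depth was not tested, and values that rest on few reads are limited by it.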

Other observations

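Of the 152 libraries that failed quality control, 7 held all 3 C1q chains: 4 of 11 from P15, 2 of 28 from P05 and 1 of 37 from P17. Over all passed libraries, 9 held all 7 genes and 207 held none of them.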
